A study of Mus musculus and Rattus norvegicus with 51 samples.

Results

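The 40 genes described here act in mitosis, the division of the duplicated chromosomes, and in the cut that follows it. They come from a given list of gene symbols, which was matched by exact symbol to 3 tables of RNA sequencing counts. All 40 were found among the 24421 genes of a table of fibrosis and resolution livers and among the 24982 genes of a table of MO and CCl4 livers, and 36 were found among the 17327 genes of a table of HSC-T6 cells. Cenpe, Kif4, Anln and Ncapg were not found by symbol in the cell table and were not analysed there. Every member that was found passed the filter on low counts, so 36 of 10140 tested genes in the cells, 40 of 13487 in the first liver table and 40 of 14129 in the second were members.

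The study addresses how redox isoforms of HMGB1, a nuclear protein that injured cells release, bear on liver fibrosis and its resolution, per its title. HSC-T6 is a rat line of hepatic stellate cells, the liver cells that lay down scar collagen. Its libraries, 3 a group, came from cells given bovine serum albumin (BSA) or HMGB1 labelled [H], [O] or [SO3] for 6 hours. The first liver table holds whole livers of male wild-type mice, 3 libraries a group: mice given CCl4 (carbon tetrachloride, a liver toxin) for 4 weeks with BSA, [H] HMGB1 or [O] HMGB1, and mice left to regress for 1 week after CCl4 with BSA, [SO3] HMGB1 or an HMGB1 antibody. The second liver table holds whole livers of male mice given MO (the label of the group without CCl4) or CCl4 for 4 weeks, with 3 libraries in each MO group and 4 in each CCl4 group. These mice were wild type (WT), or had the genotype Hmgb1ΔHepΔMye with added WT HMGB1 or added Δ[O] HMGB1. The genotype name stands for a deletion of Hmgb1, and cells that keep the gene remain in a whole liver. The sources used here give no ages or doses and do not describe the route of the added HMGB1. The deposited counts of the second liver table carry AAV8, an adeno-associated virus vector, in their name. The sample titles do not say which mice received it. The labels number the libraries of a group without naming a culture or animal for each, and a p-value therefore covers the spread among libraries, which may be technical.

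As background, mitotic genes are read mainly late in the cell cycle. The transcription factors FOXM1 and B-MYB, the latter with the MuvB complex, switch them on, and their products are destroyed or their transcripts lost as cells leave division. Resting hepatocytes hold little of these transcripts, while livers that regenerate after injury, and the stellate and immune cells that multiply in them, hold more. In whole liver, and in the libraries of cultured cells, fewer dividing cells and less RNA per dividing cell cannot be told apart.

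Promoters are shown because many genes of this kind carry a pair of short elements: TTTGAA, the core of the cell cycle homology region (CHR) that MuvB binds, and CCAAT, which the factor NF-Y binds. RefSeq promoters (mouse, GRCm38.p6) from 250 bases before to 50 bases after the annotated start were matched for 33 of the 40 members. The 4 printed here, 5′ to 3′ on the gene's strand, were chosen after the values were seen: Ccnb2 and Kif23 had large differences in their response to CCl4 between genotypes, Cdc20 had the smallest, and Plk1 fell most in the cells. Capitals mark TTTGAA and CCAAT on either strand, so that the reverse reads TTCAAA or ATTGG. Ccnb2 lies at chr9:70421505-70421804 on the minus strand, Kif23 at chr9:61946750-61947049 on the minus strand, Cdc20 at chr4:118437294-118437593 on the minus strand and Plk1 at chr7:122159185-122159484 on the plus strand.
Ccnb2: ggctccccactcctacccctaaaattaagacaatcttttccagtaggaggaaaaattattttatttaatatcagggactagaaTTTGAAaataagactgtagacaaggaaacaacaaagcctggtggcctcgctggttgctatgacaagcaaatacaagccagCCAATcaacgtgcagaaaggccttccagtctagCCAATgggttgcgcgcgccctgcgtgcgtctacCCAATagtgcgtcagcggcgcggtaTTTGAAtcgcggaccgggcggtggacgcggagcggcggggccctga
Kif23: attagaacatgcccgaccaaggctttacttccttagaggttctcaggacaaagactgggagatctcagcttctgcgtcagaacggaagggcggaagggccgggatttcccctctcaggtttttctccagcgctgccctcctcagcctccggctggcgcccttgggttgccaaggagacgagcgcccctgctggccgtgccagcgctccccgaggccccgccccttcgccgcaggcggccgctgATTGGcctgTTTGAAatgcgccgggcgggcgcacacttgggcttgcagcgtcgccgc
Cdc20: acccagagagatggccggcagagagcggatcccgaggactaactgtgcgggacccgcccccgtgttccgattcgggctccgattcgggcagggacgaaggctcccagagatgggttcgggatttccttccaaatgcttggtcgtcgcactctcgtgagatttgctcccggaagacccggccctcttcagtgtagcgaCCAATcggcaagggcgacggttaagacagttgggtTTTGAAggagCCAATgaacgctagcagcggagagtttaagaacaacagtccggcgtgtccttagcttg
Plk1: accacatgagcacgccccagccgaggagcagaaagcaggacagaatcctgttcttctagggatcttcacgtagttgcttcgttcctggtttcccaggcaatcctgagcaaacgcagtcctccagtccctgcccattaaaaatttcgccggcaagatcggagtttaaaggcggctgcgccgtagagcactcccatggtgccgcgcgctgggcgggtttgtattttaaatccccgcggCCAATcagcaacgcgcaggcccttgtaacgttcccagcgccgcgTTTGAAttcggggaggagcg

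All 4 promoters hold both elements. TTTGAA stood in 26 of the 33 matched members (78.8%), against 20.2% of 27025 genes with a promoter of this length. CCAAT stood in 25 of 33 (75.8%), against 41.1% of those genes, and both stood in 22 of 33 (66.7%), against 7.97%. In 24 of 33 members (72.7%) a TTTGAA began within 50 bases of the annotated start, against 5.72% of genes. Of the E2F-type motifs, TTTGGCGC stood in 1 member (3.03%, against 0.585%) and TTTCCCGC in 1 (3.03%, against 1.24%). Birc5, Melk, Nuf2 and Nusap1 held neither TTTGAA nor CCAAT in this window. A TTTGAA and a CCAAT can share a base at their ends, and a match describes letters, not binding.

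Libraries held 11752661 to 16981255 gene counts in the cell table, 8355714 to 16327132 in the first liver table and 22598631 to 39323123 in the second. Levels are CPM, counts scaled to the total gene counts of a library and by edgeR's TMM factors, and they compare libraries within a table, not genes of different length or tables. A change was called when the Benjamini-Hochberg adjusted p of edgeR's quasi-likelihood test, over all genes tested, was under 0.05. The cells given BSA had the stellate markers Col1a1 at 37799.8 to 39884 CPM and Vim at 5274 to 6026 CPM, while the retinoid enzyme gene Lrat, a marker of resting stellate cells, the hepatocyte gene Alb and the leukocyte gene Ptprc were at 0 in all 3 libraries. Alb was high in the livers (14431 to 18033 CPM with CCl4 and BSA). In the second liver table Hmgb1 measured 74.9 ± 2.28 CPM in WT livers with MO (SD, n = 3), 69.4 ± 5.42 in Hmgb1ΔHepΔMye livers with added WT HMGB1 and MO and 173 ± 42.2 with added Δ[O] HMGB1 and MO. With CCl4 it measured 74.8 ± 22.1, 58.7 ± 13.4 and 74.5 ± 14.8 CPM in these groups (SD, n = 4). Since the genotype carries added HMGB1 and keeps other cell types, these counts do not check it.

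In HSC-T6 cells, [SO3] HMGB1 lowered nearly the whole set. The 36 genes summed to 1779, 1769.9 and 1834 CPM with [SO3] and 3088, 3069 and 3327 CPM with BSA, a mean of 56.8% of the BSA level. The [O] libraries summed to 2863, 2894 and 2956 CPM and the [H] libraries to 3288, 3318 and 3283 CPM. The [SO3] libraries lay below all others, and the [H] libraries overlapped those with BSA. With [SO3], 34 of 36 members fell, 1 rose and 1 was not called, where 32.2% of all genes tested were called lower and 31.1% higher. The median log2 fold change of the members was -0.79, against -0.02 over all genes tested. With upper-quartile factors the calls over all genes were 2423 higher and 4384 lower, in place of 3155 and 3265, and those of the members 1 and 34. All [SO3] libraries lay below all BSA libraries in 34 members, where 32.5% of all genes did.

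Among the genes of mitotic entry, 8 of 9 fell with [SO3]. Plk1, the kinase that drives centrosome maturation and mitotic exit, stood at 89.5, 91.4 and 86.3 CPM with BSA and 30.3, 29.9 and 33.9 CPM with [SO3] (log2 fold change -1.51, SE 0.05, adjusted p = 7.67e-18). The 2 groups of libraries did not overlap, and Plk1 had the largest fall of the 36 genes. Ccna2, the cyclin of S phase and early mitosis, stood at 87.7, 88.7 and 104 CPM with BSA and 46.1, 46.6 and 44.1 CPM with [SO3] (log2 fold change -1.03, SE 0.06, adjusted p = 4.16e-13), again without overlap. Foxm1, which encodes the factor named above, changed by log2 -0.89, and Ccnb1, Ccnb2 and Cdk1, the cyclin B genes and their kinase, by -0.80, -0.74 and -0.78. The exception was Cdc25c, the phosphatase that activates CDK1, at 18.4, 19.6 and 18.4 CPM with BSA and 19.1, 19.5 and 18.8 CPM with [SO3] (log2 fold change 0.03, SE 0.07, adjusted p = 0.763). Its groups overlapped. Of the genes named for this comparison, these 5, Cdc20, Espl1, Nuf2 and Incenp lie outside the naming rule and were chosen after their values were seen.

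All 6 genes of the spindle checkpoint and anaphase fell with [SO3]. Bub1b, which encodes the checkpoint protein BUBR1, stood at 61.2, 55.8 and 60.6 CPM with BSA and 24.7, 24.1 and 25.2 CPM with [SO3] (log2 fold change -1.26, SE 0.06, adjusted p = 4.16e-15). Bub1, a kinase that brings checkpoint proteins to the kinetochore, stood at 47.4, 48.5 and 57.0 against 21.7, 22.02 and 21.1 CPM (log2 fold change -1.23, SE 0.07, adjusted p = 5.43e-14). Both genes were under the BSA libraries in every [SO3] library. Cdc20, which activates the anaphase-promoting complex, fell by 1.18 on the log2 scale and Espl1, the separase that cuts cohesin, by 0.42. The 5 measured genes of the centromere and kinetochore also fell, from Cenpf, a large kinetochore and nuclear-envelope protein, at 213, 198 and 226 against 89.2, 90.5 and 95.3 CPM (log2 fold change -1.21, SE 0.05, adjusted p = 8.17e-17), to Nuf2, a subunit of the NDC80 complex that grips microtubules, at -0.21 (SE 0.07). Spc25, another subunit of that complex, changed by log2 -0.89 (SE 0.12).

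The chromosomal passenger complex, which corrects faulty attachments and then moves to the midzone, was the group with the smallest median change, -0.31 on the log2 scale. Aurkb, its kinase, changed by log2 -0.31 (SE 0.05) and Birc5, which encodes its subunit survivin, by -0.35 (SE 0.08). Incenp, its scaffold, went the other way, with 85.6, 78.1 and 77.2 CPM with BSA and 90.8, 92.03 and 102 CPM with [SO3] (log2 fold change 0.24, SE 0.06, adjusted p = 6.00e-04). The 3 [SO3] libraries lay above the 3 with BSA, and no other member rose. All 6 measured spindle motors and microtubule binders fell, led by Tpx2, an activator of Aurora A, at log2 -0.83 (SE 0.05) and Kif2c, a motor that takes microtubules apart, at -0.69 (SE 0.05). All 5 measured cytokinesis genes fell, led by Racgap1 (-1.08, SE 0.05) and Kif23 (-1.01, SE 0.05), the 2 subunits of centralspindlin, which builds the midzone. Mki67, the surfactant of mitotic chromosomes and a common proliferation marker, changed by log2 -1.02 (SE 0.05) and Top2a, the topoisomerase that untangles sister chromatids, by -1.04 (SE 0.04).

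**Figure D1:**
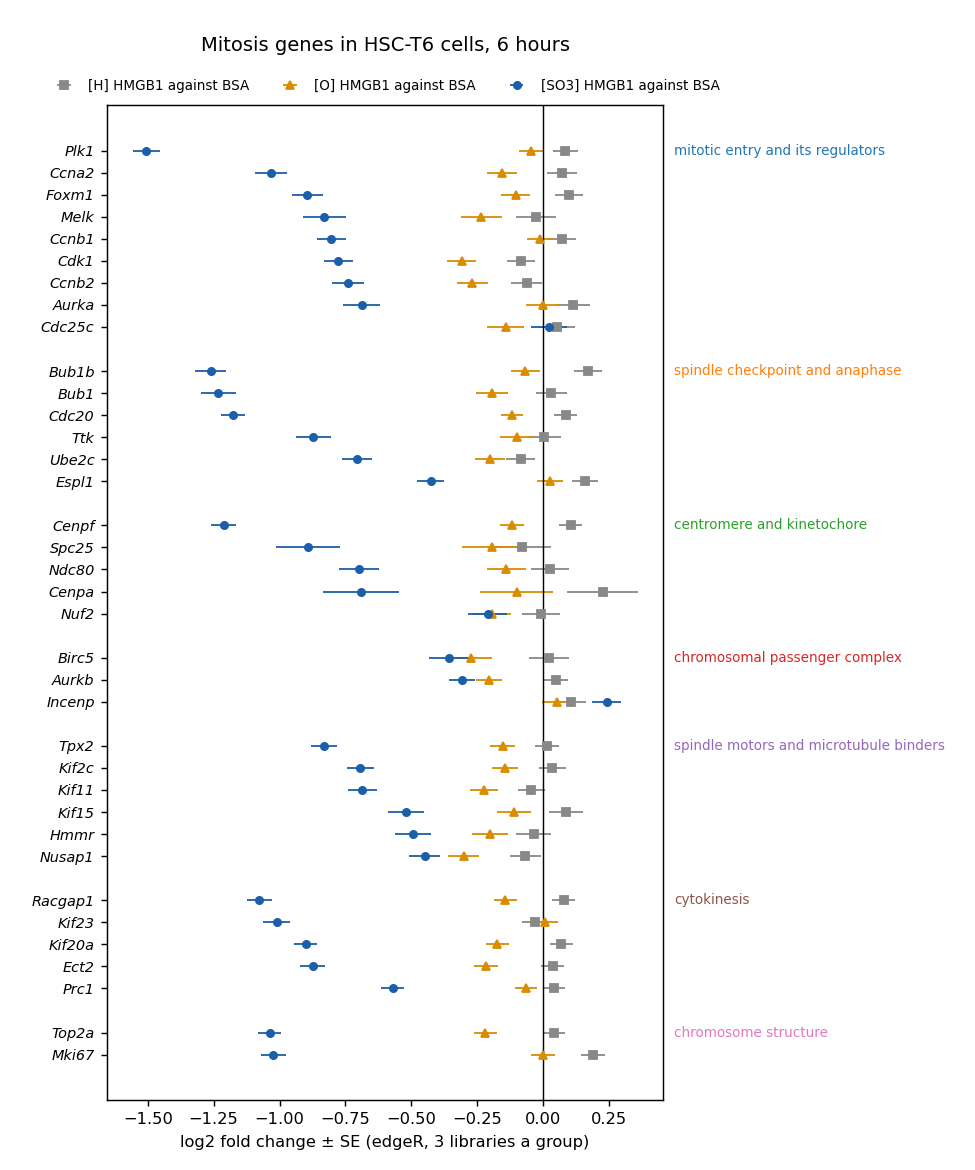
log2 fold change with its SE (horizontal axis) of the 36 measured members in HSC-T6 cells, by role group and ordered by the change with [SO3], for [H], [O] and [SO3] HMGB1 against BSA (3 libraries a group). The [SO3] points run from -1.51 for Plk1 to 0.24 for Incenp, those of [O] from -0.31 to 0.05 and those of [H] from -0.08 to 0.23.

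With [O] HMGB1 the changes were small and mostly downward: 20 of 36 members fell and 0 rose, where 20.2% of all genes tested were called lower and 23.7% higher. That balance of all genes depends on the scaling. It was 2408 higher and 2045 lower as reported, 1637 and 3650 with upper-quartile factors (median of all genes -0.096) and 1887 and 2990 without scaling factors, where 29 and 26 members were lower and 0 higher. The median log2 fold change was -0.14, against -0.01 over all genes, and 18 members had all [O] libraries below all BSA libraries, where 23.9% of all genes did. Cdk1 stood at 84.8, 89.6 and 96.7 CPM with BSA and 69.1, 71.9 and 77.6 CPM with [O] (log2 fold change -0.31, SE 0.05, adjusted p = 4.40e-05), without overlap. Nusap1, a microtubule bundler, stood at 70.5, 72.0 and 81.2 against 57.2, 62.5 and 61.5 CPM (log2 fold change -0.30, SE 0.06, adjusted p = 1.76e-04). These were the largest changes, and no member changed 2-fold. In the other groups the largest were Ccnb2 (-0.27), the ubiquitin-conjugating enzyme gene Ube2c (-0.20), Bub1 (-0.19), Nuf2 (-0.19), Cenpf (-0.12), Birc5 (-0.27), Aurkb (-0.20), the spindle motor gene Kif11 (-0.22), Ect2, which activates RhoA at the cleavage furrow (-0.22), the midzone motor gene Kif20a (-0.17) and Top2a (-0.22), all as log2 fold changes. The BSA 3 library was the highest of all 12 for 19 of 36 members. Without it 10 members were called, and without [O] 1 or [O] 2, 12 and 13.

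With [H] HMGB1, 1 of 36 members rose and 0 fell, where 0.316% of all genes tested were called higher and 0.483% lower. That member was Mki67, at 371, 372 and 379 CPM with [H] and 328, 314 and 341 CPM with BSA (log2 fold change 0.19, SE 0.05, adjusted p = 0.0450). Its [H] libraries lay above all BSA libraries, as did those of 10 members in all, where 13.7% of all genes did. Leaving out BSA 1, BSA 2 or any [H] library ended the call. DESeq2 called 1 member as well. Over all genes the calls were 32 higher and 49 lower, 56 and 45 without scaling factors, and 78 and 62 by DESeq2.

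Set against [O] directly, [SO3] lowered 31 of 36 members and raised 2, where 30% of all genes tested were called lower and 29.1% higher, with a median of -0.63. Without scaling factors the calls over all genes were 3997 higher and 2342 lower, in place of 2953 and 3047, and those of the members 2 and 30. Plk1 (log2 -1.46, SE 0.05), Bub1b (-1.20, SE 0.06), Cenpf (-1.10, SE 0.05), Cdc20 (-1.06, SE 0.04), Bub1 (-1.04, SE 0.07), Mki67 (-1.02, SE 0.05) and Kif23 (-1.02, SE 0.05) were each lower by at least log2 1. Ccna2 (-0.88), Spc25 (-0.70), Tpx2 (-0.68), Kif2c (-0.55), Racgap1 (-0.93) and Top2a (-0.82) also fell. The members higher with [SO3] than with [O] were Incenp (0.19, SE 0.06) and Cdc25c (0.17, SE 0.07). Bub1 and Cdc25c lie outside the naming rule, as do Aurkb, Birc5 and Nuf2, and all 5 were chosen after their values were seen. Aurkb, Birc5 and Nuf2, at -0.10 (SE 0.05), -0.08 (SE 0.08) and -0.02 (SE 0.07), were not called, and they belong to the genes that [SO3] changed least against BSA. These comparisons share the [O], BSA or [SO3] libraries.

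Other cell cycle genes are given for context, beside 31.1% of all genes tested called higher and 32.2% lower with [SO3] against BSA. Of 38 measured further mitotic genes, 30 fell and 3 rose with [SO3] against BSA, with Zwint, which links checkpoint proteins to the kinetochore, at log2 1.33 and Hjurp, the CENP-A chaperone gene, at -1.24. Of 20 replication genes, 15 fell and 1 rose, led by Cdc6 (-0.96) and Mcm2 (-0.80), which load and form the replicative helicase. Of 13 subunits and activators of the anaphase-promoting complex, 7 fell and 3 rose, with a largest change of -0.50 in Cdc26, and Cdc23 at -0.36. Of 11 tested G1 cyclins, kinases and activator E2Fs, 4 rose and 4 fell, with Cdk6 at 0.79 and E2f3 at 0.69. Of 11 tested inhibitors and stop signals, 4 rose and 5 fell, with the antiproliferative gene Btg2 at 3.43 and the CDK inhibitor gene Cdkn1a at 2.45. Of 9 tested MuvB, B-Myb and pocket protein genes, 4 rose and 3 fell, with Rbl2, which encodes the pocket protein p130, at -1.03 and the MuvB subunit gene Lin54 at 0.55. The counts of the G1, inhibitor and MuvB lists lie near the shares of all genes. With [O], 16 of 20 replication genes and 13 of 38 further mitotic genes fell, while 0 and 2 rose. Of 11 tested G1 genes 4 rose and 7 fell, and of 11 inhibitors and stop signals 5 rose and 2 fell. Of 9 MuvB, B-Myb and pocket protein genes 2 rose and 3 fell, and of 13 anaphase-promoting complex genes 0 were called. Of all genes tested, 20.2% were called lower and 23.7% higher with [O]. The summed stellate markers measured 65505 to 69696 CPM with BSA and 48304 to 51554 CPM with [SO3], and their part in these results was not tested.

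In the fibrosis livers the level of the members differed widely between libraries of 1 group. The 40 genes summed to 218, 44.2 and 1656 CPM in the libraries with CCl4 and BSA, 219, 74.1 and 70.3 CPM with [H] and 248, 119 and 345 CPM with [O]. BSA 3 was the highest of all 18 libraries of the table for 40 of 40 members, and BSA 2 was the lowest of its group for 40 of 40. Member by member, BSA 3 exceeded BSA 1 by 2.36-fold (Spc25) to 47.5-fold (Ccnb2), with a median of 7.14-fold. Among the markers, the summed stellate and myofibroblast genes (7 of 7 found) stood at 1227 CPM in BSA 3 against 365 and 394 CPM in the other BSA libraries, and the summed cholangiocyte genes (4 of 4 found) at 538 CPM in BSA 2 against 42.2 and 57.6 CPM. The [O] libraries ran from 1005 to 1199.8 CPM and the [H] libraries from 191 to 385 CPM in the stellate sum. The part of these markers in the spread of the members was not tested.

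**Figure D2:**
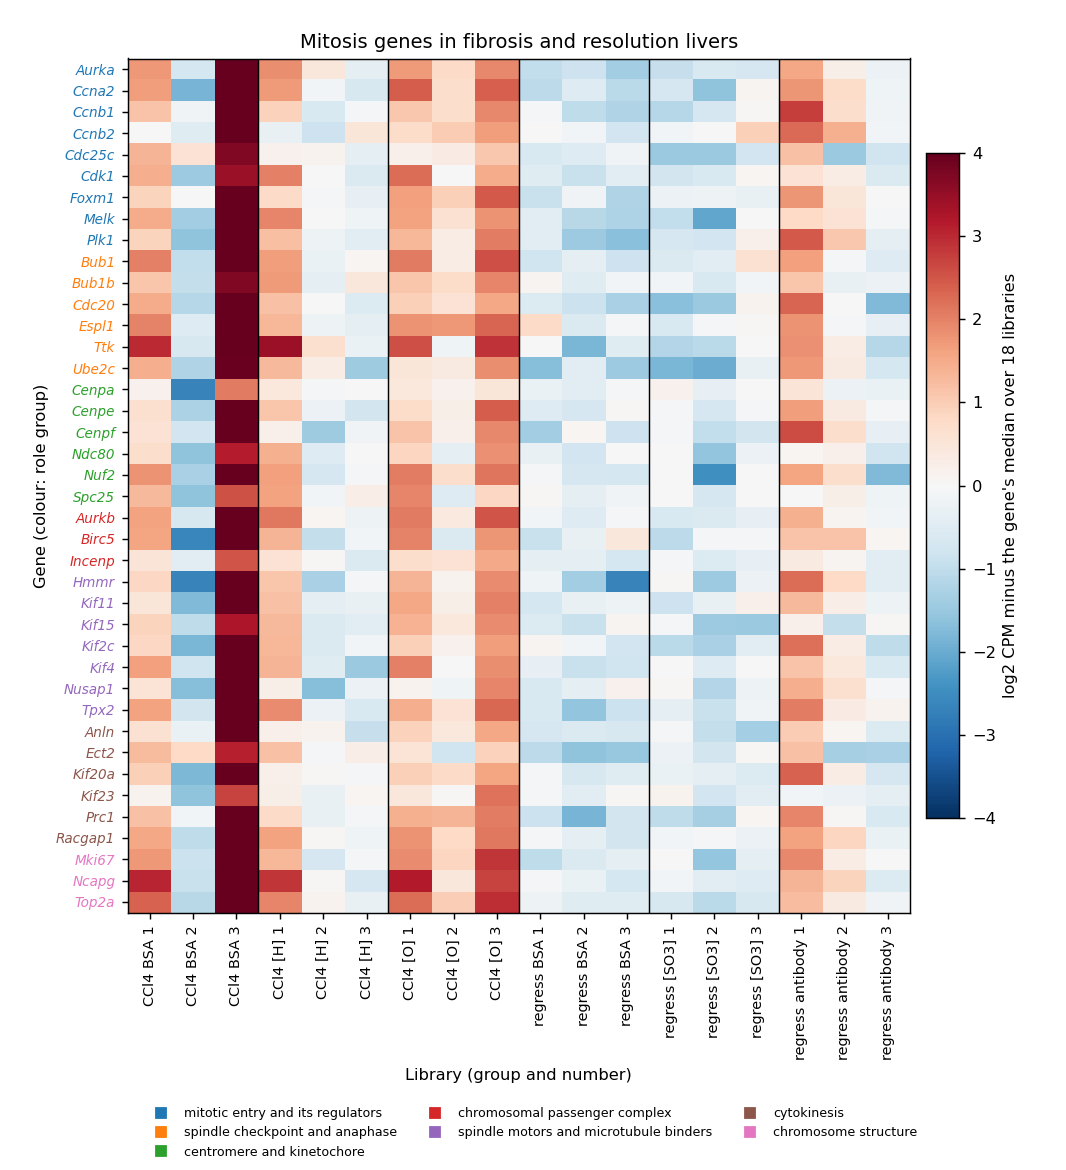
Level of the 40 members in each of the 18 fibrosis and resolution libraries, as log2 CPM minus the gene's median over the 18 (colour, saturated beyond 4 in either direction), with gene names coloured by role group. The column of CCl4 BSA 3 is dark red in every role group, while the regress BSA and regress [SO3] columns stay near or below the medians.

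No member was called in a comparison of the fibrosis groups, where 0% of all genes tested were called. Against BSA, all 40 members had a negative log2 fold change with [H] (median -2.60, SE 0.55 to 1.38) and with [O] (median -1.52, SE 0.54 to 1.28). Both comparisons share the BSA libraries, BSA 3 among them. With [H], 30 members had an unadjusted p under 0.05 and the smallest adjusted p was 0.414, and with [O] these were 5 members and 0.889. The share of all genes with such an unadjusted p was not counted, so these member counts have no background to be read against. DESeq2 called 0 members in both, and over all genes 3 with [H] and 5 with [O], all lower. Between [O] and [H], 39 of 40 members were higher with [O] (median 1.11), 0 had an unadjusted p under 0.05, and 8 had all [O] above all [H] libraries, where 9.27% of all genes did. Here DESeq2 called 261 of all genes higher and 17 lower, but 0 members. With [H] against BSA, all libraries lay below for 1 member, where 4.87% of all genes did. Over all genes tested, the deviations of same-numbered libraries of these 3 groups correlated at 0.19 to 0.71. Libraries with unlike numbers were not compared. The members did not follow the numbers throughout. Library 3 was the highest of its group for 40 members with BSA and 34 with [O], but the lowest for 21 with [H]. With the number as a block in a fit of these groups alone, which was added after the data were seen, 0 members were called and the medians were -1.64 for [H] against BSA, -0.81 for [O] against BSA and 0.83 for [O] against [H]. Within the numbers, the summed level with [O] lay above that with [H] in 3 of 3 pairs, most widely in pair 3. That order is a description without a test, and no label ties the numbers to animals.

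The members with the highest mean levels in this table show the spread. Mki67 stood at 23.3, 3.72 and 246 CPM with BSA, 17.8, 4.28 and 6.68 with [H] and 26.4, 12.7 and 51.6 with [O]. Top2a stood at 21.3, 1.81 and 100.3 CPM with BSA, 16.3, 4.48 and 3.31 with [H] and 19.8, 8.16 and 32.3 with [O]. Cdk1 stood at 13.3, 1.61 and 52.7 CPM with BSA, 19.5, 4.61 and 3.12 with [H] and 22.8, 4.80 and 13.3 with [O]. In each gene the groups overlapped, and BSA held both the lowest or near-lowest library and the highest. Incenp varied least, at 13.02, 6.74 and 53.2 CPM with BSA, 13.6, 9.29 and 5.98 with [H] and 14.7, 13.8 and 26.0 with [O]. Averaged over the 6 groups, the SD of log2 CPM within a group was 0.58 for Incenp, the smallest, and 1.57 for Ttk, the checkpoint kinase gene, the largest. Without BSA 3, the log2 fold change with [O] turned positive for these 4 genes (0.78 to 1.15), and with [H] it turned positive for Cdk1 (0.25), with no call.

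After 1 week of regression the members had overlapping levels in the BSA and [SO3] groups. They summed to 59.0, 52.3 and 55.6 CPM with BSA and 65.2, 46.2 and 74.1 CPM with [SO3], and these libraries overlapped. With the antibody they summed to 239.8, 103 and 63.5 CPM, where antibody 1 was the highest of its group for 38 of 40 members and antibody 3 the lowest for 36. No member was called for [SO3] or the antibody against BSA, where 0% of all genes tested were called. With [SO3], 22 members were higher and 18 lower (median 0.09, SE 0.56 to 1.92), 0 had an unadjusted p under 0.05 and DESeq2 called 0 members, but 66 of all genes higher and 14 lower. With the antibody, 39 of 40 were higher (median 1.39, SE 0.56 to 1.60), 1 had an unadjusted p under 0.05, DESeq2 called 0 members and 7 of all genes, and 10 had all antibody libraries above all BSA libraries, where 5.52% of all genes did. All BSA libraries lay below all [SO3] libraries for 1 member and above them for 2, where 11.1% of all genes did so in each direction.

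Mki67 stood at 3.35, 4.58 and 5.39 CPM with BSA, 6.95, 2.26 and 5.30 with [SO3] and 26.7, 8.59 and 6.95 with the antibody. Cdk1 stood at 3.28, 2.48 and 3.39 CPM with BSA, 2.74, 3.01 and 4.99 with [SO3] and 7.12, 5.80 and 3.08 with the antibody. Top2a stood at 3.49, 2.87 and 2.89 CPM with BSA, 2.56, 1.83 and 2.55 with [SO3] and 9.83, 5.26 and 3.67 with the antibody. In these 3 genes, and in Incenp, antibody 1 lay above every BSA and [SO3] library, while antibody 3 lay among or near them. Incenp stood at 6.84, 6.98 and 5.52 CPM with BSA, 8.87, 6.13 and 7.13 with [SO3] and 11.6, 9.77 and 6.55 with the antibody. The errors of the [SO3] differences were large: for Mki67 the log2 fold change was 0.14 (SE 1.08) and for Cdk1 0.23 (SE 0.93).

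Between the 2 BSA groups, resolution against fibrosis, 24 of 40 members fell and 0 rose, where 6.6% of all genes tested were called lower and 2.4% higher, with a median log2 fold change of -3.75 against -0.04 over all genes. The largest called changes by group were in Ccnb1 (-4.78, SE 1.25), Plk1 (-4.77, SE 1.30), Bub1 (-4.91, SE 1.33), Cdc20 (-4.14, SE 1.21), Cenpf (-4.27, SE 1.28), Aurkb (-3.69, SE 1.08), Incenp (-1.91, SE 0.56), Tpx2 (-4.65, SE 1.19), the chromokinesin gene Kif4 (-3.87, SE 1.10), the midzone bundler gene Prc1 (-4.46, SE 1.06), Kif20a (-3.76, SE 1.13), Mki67 (-4.37, SE 1.14) and the condensin gene Ncapg (-4.23, SE 1.26). The count depended on single libraries of both groups. Without any 1 of the 3 resolution BSA libraries 0 members were called, while the median stayed between -3.85 and -3.67. Without fibrosis BSA 3, 1 member was called and the median was -1.27, and without fibrosis BSA 1 or 2, 36 and 38 were called with medians of -4.17 and -4.31. A fit of these 2 groups alone called 0 of the 29 members it tested. All resolution libraries lay below all fibrosis libraries for 6 members, where 16.7% of all genes did. Without scaling factors the calls over all genes were 158 higher and 1038 lower, in place of 324 and 890, and those of the members 0 and 25. DESeq2 called 36 members, and 745 of all genes higher and 1589 lower. Markers of 4 other cell types differed between these groups without overlap. From fibrosis to resolution BSA, the summed stellate and myofibroblast genes stood at 365 to 1227 and 203 to 297 CPM, the cholangiocyte genes at 42.2 to 538 and 16.2 to 23.0 CPM, the neutrophil genes (3 of 4 found) at 42.5 to 129.97 and 22.2 to 34.9 CPM, and the erythroid precursor genes (6 of 6 found), which mark forming red blood cells, at 20.6 to 95.001 and 188 to 219 CPM. Their part in the result was not tested. Reads of Kif4 may be shared with Kif4-ps, which both liver tables list, so its values are uncertain.

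In the second liver table CCl4 raised 27 of the 40 members in WT livers and 40 of 40 in both groups of Hmgb1ΔHepΔMye livers. With MO, the 40 genes summed to 46.5, 42.4 and 45.5 CPM in WT livers, 87.1, 82.7 and 82.0 CPM with added WT HMGB1 and 63.4, 56.6 and 92.2 CPM with added Δ[O] HMGB1. With CCl4, they summed to 152, 94.5, 208 and 70.6 CPM in WT livers, 728, 1031, 1102 and 1063 CPM with added WT HMGB1 and 609, 845, 1178 and 340.1 CPM with added Δ[O] HMGB1, for the libraries in the order of their numbers. Every CCl4 library of the Hmgb1ΔHepΔMye livers lay above every WT library. The mean sums with CCl4 were 2.93, 11.7 and 10.5 times those with MO. Levels with MO were not tested between genotypes. Cell type markers differed with CCl4 too: the summed stellate and myofibroblast genes (7 of 7 found) stood at 48.2 to 94.4 CPM with MO and 298 to 627 CPM with CCl4 in WT livers, at 92.4 to 123 and 1110 to 1669 CPM with added WT HMGB1, and at 68.3 to 130.4 and 445 to 1003 CPM with added Δ[O] HMGB1. The summed hepatocyte genes (5 of 5 found) lay below all MO libraries of the same genotype in every CCl4 library, at 139805 to 163312 and 79379 to 115533 CPM in WT livers, 96989 to 143517 and 75502 to 87189 CPM with added WT HMGB1, and 115465 to 119171 and 86649 to 106288 CPM with added Δ[O] HMGB1. The part of these cell types in the rise of the members was not tested.

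**Figure D3:**
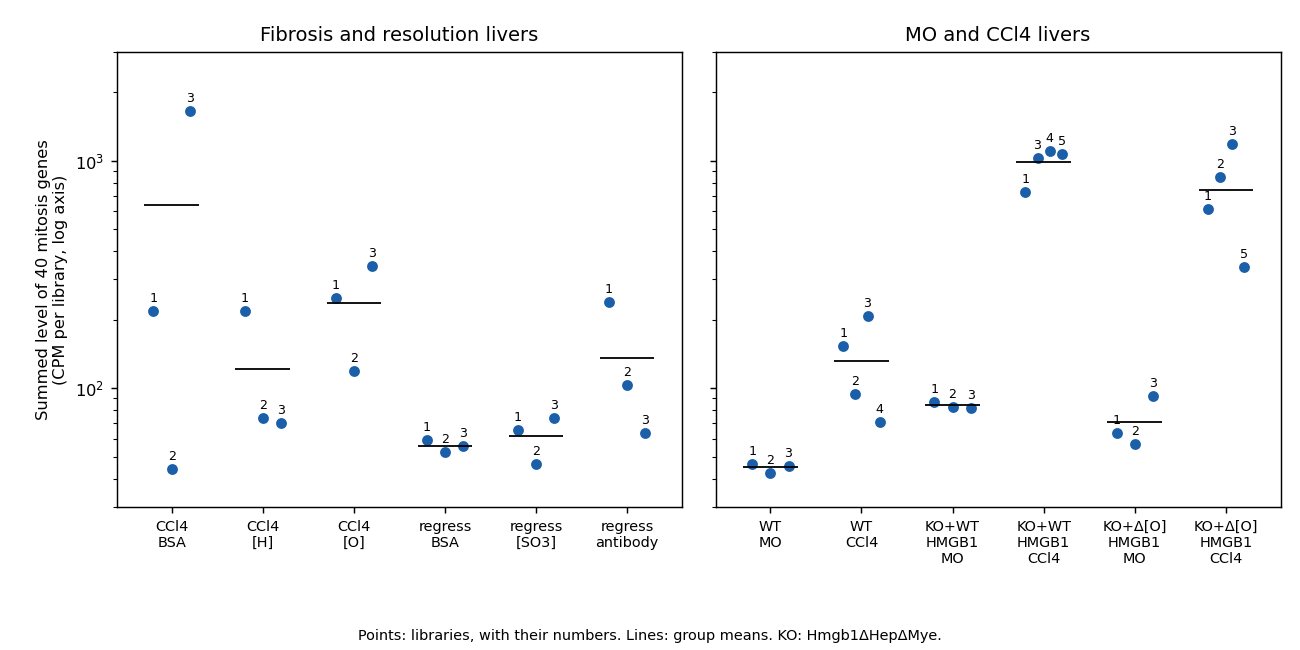
Summed level of the 40 members in each library (points, with library numbers; logarithmic vertical axis in CPM) of the fibrosis and resolution livers (left) and the MO and CCl4 livers (right), with group means as lines. On the right the Hmgb1ΔHepΔMye livers with CCl4 lie between 340.1 and 1178 CPM, above the 70.6 to 208 CPM of WT livers with CCl4, and on the left fibrosis BSA 3 stands alone at 1656 CPM.

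In WT livers, 27 of 40 members rose with CCl4 and 0 fell, where 22.8% of all genes tested were called higher and 23.5% lower, with a median log2 fold change of 1.70 against 0.00 over all genes. The members' CCl4 libraries all lay above their MO libraries in 24, where 23.3% of all genes did. Without scaling factors the median of all genes moved by 0.45 and the calls over all genes were 6862 higher and 1195 lower, while the members were 38 higher and 0 lower. With upper-quartile factors they were 3974 and 2551 over all genes and 29 and 0 over the members, in place of 3219 and 3323 over all genes. All 6 genes of the spindle checkpoint and anaphase rose. Cdc20 stood at 0.411, 0.219 and 0.508 CPM with MO and 4.45, 2.30, 4.96 and 1.53 CPM with CCl4 (log2 fold change 3.09, SE 0.52, adjusted p = 1.02e-04), and Bub1 rose by log2 2.96 (SE 0.64). All 3 chromosome structure genes rose, with Ncapg at 0.452, 0.328 and 0.370 against 6.21, 2.66, 5.02 and 1.23 CPM (log2 fold change 3.28, SE 0.68, adjusted p = 6.94e-04) and Top2a at 2.10, 1.48 and 1.99 against 20.1, 11.4, 19.1 and 4.85 CPM (log2 fold change 2.90, SE 0.59, adjusted p = 6.94e-04). In Cdc20, Ncapg and Top2a every CCl4 library lay above every MO library.

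Of the 6 centromere and kinetochore genes, 2 rose: Nuf2, at 0.247, 0.164 and 0.0462 CPM with MO and 1.87, 0.748, 2.90 and 0.896 CPM with CCl4 (log2 fold change 3.35, SE 0.74, adjusted p = 0.00113), and Cenpe, the kinetochore motor gene, at log2 1.29 (SE 0.41). Nuf2 had the largest change of the 40, from levels of 1 to 6 counts per MO library. Of 9 mitotic entry genes 6 rose, led by Ccna2 (2.41, SE 0.54) and the kinase gene Melk (2.30, SE 0.76). Aurkb (2.11, SE 0.57) and Incenp (1.22, SE 0.30) rose in the passenger complex, Tpx2 (2.14, SE 0.44) and Kif4 (2.08, SE 0.56) led 4 of 7 motors and microtubule binders, and Prc1 (2.16, SE 0.53) and Racgap1 (1.94, SE 0.46) led 4 of 6 cytokinesis genes. The 13 members that were not called include Ccnb2, at 1.19, 0.328 and 1.34 CPM with MO and 0.678, 0.692, 2.17 and 0.635 CPM with CCl4 (log2 fold change 0.11, SE 0.56, adjusted p = 0.896), and Kif23, at 1.28, 1.20 and 1.06 and 1.60, 1.02, 0.957 and 0.523 CPM (log2 fold change -0.18, SE 0.38, adjusted p = 0.723). These 2 are named after their values were seen, and their groups overlapped.

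In Hmgb1ΔHepΔMye livers with added WT HMGB1, 40 of 40 members rose with CCl4, where 23.3% of all genes tested were called higher and 24% lower, with a median of 3.60. Without scaling factors the calls over all genes were 5180 higher and 1532 lower, in place of 3298 and 3387, and 40 members rose. The smallest change was in Cenpa, the centromere histone gene (1.35, SE 0.36). Melk stood at 0.385, 0.125 and 0.538 CPM with MO and 5.99, 9.62, 11.7 and 10.7 CPM with CCl4 (log2 fold change 4.67, SE 0.60, adjusted p = 9.85e-06), and Nuf2 at 0.617, 0.627 and 0.743 and 8.90, 13.6, 16.4 and 17.8 CPM (log2 fold change 4.40, SE 0.55, adjusted p = 7.12e-06). Mki67 stood at 8.40, 6.90 and 8.56 CPM with MO and 94.7, 140.3, 186 and 191 CPM with CCl4 (log2 fold change 4.26, SE 0.49, adjusted p = 4.83e-06). The groups did not overlap in 40 of 40 members, where 24.8% of all genes had all CCl4 libraries above all MO libraries. In the other roles the largest were Ccna2 (4.16), Bub1 (4.15), Ttk (3.86), Cenpf (3.70), Aurkb (3.69), Birc5 (3.59), the hyaluronan receptor and spindle protein gene Hmmr (3.97), Tpx2 (3.94), Prc1 (4.06), the actin-ring scaffold gene Anln (3.86) and Top2a (4.02), as log2 fold changes.

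With added Δ[O] HMGB1, 40 of 40 members rose with CCl4 as well, where 12.9% of all genes tested were called higher and 11.4% lower, with a median of 3.54. Over all genes the calls were 1818 higher and 1607 lower, 2557 and 684 without scaling factors, and 2224 and 978 with upper-quartile factors, and 40 members rose in each. The groups did not overlap in 39 members, all but Cenpa, where 14.6% of all genes lay above without overlap. Bub1 stood at 0.390, 0.121 and 0.525 CPM with MO and 7.91, 9.52, 14.1 and 3.47 CPM with CCl4 (log2 fold change 4.61, SE 0.52, adjusted p = 8.06e-06), and Ncapg at 0.531, 0.522 and 0.803 and 12.3, 12.9, 22.6 and 2.95 CPM (log2 fold change 4.34, SE 0.62, adjusted p = 7.86e-05). Cdc25c (4.06), Foxm1 (4.05), Ttk (4.08), Nuf2 (4.13), Cenpf (3.72), Aurkb (3.67), Birc5 (3.54), Hmmr (3.79), Tpx2 (3.76), Prc1 (4.09), Kif20a (3.57) and Mki67 (3.95) had the largest log2 fold changes of their roles. Library 5 of the CCl4 group was the lowest for 39 of 40 members and library 3 the highest for 36. Library 3 exceeded library 5 by 1.70-fold (Kif20a) to 7.65-fold (Ncapg).

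Under CCl4, Δ[O] HMGB1 and WT HMGB1 gave overlapping levels in 40 of 40 members, and 0 were called, where 0.113% of all genes tested were called higher and 2.19% lower, and 3.88% lay above and 7.07% below without overlap. All 40 log2 differences of Δ[O] minus WT HMGB1 were negative (median -0.38, SE 0.22 to 0.44), 2 had an unadjusted p under 0.05, the smallest adjusted p was 0.122 and DESeq2 called 0. Over all genes tested, the deviations of same-numbered libraries of the CCl4 groups correlated at 0.11 to 0.31. Libraries with unlike numbers were not compared. With the number as a block in a fit of the 3 CCl4 groups alone, added after the data were seen, 0 members were called (median -0.56), while the calls over all genes went from 16 higher and 310 lower to 333 and 678. Mki67 stood at 73.7, 96.2, 149.6 and 48.0 CPM with Δ[O] HMGB1 and 94.7, 140.3, 186 and 191 CPM with WT HMGB1 (log2 fold change -0.74, SE 0.38, adjusted p = 0.373), and Top2a at 56.5, 59.1, 100.4 and 14.5 and 56.0, 84.2, 75.7 and 75.1 CPM (log2 fold change -0.34, SE 0.44, adjusted p = 0.787). Ccna2 differed by -0.41 (SE 0.37) and Cdk1 by -0.04 (SE 0.40). Without library 5 of the Δ[O] group the difference in Cdk1 was 0.26. The change from MO to CCl4, compared between these groups, was called in 0 members, where 0% of all genes were called (median difference -0.06, SE 0.38 to 0.82). There 0 had an unadjusted p under 0.05 and DESeq2 called 0 members, but 33 of all genes higher and 52 lower.

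Between genotypes under CCl4, 40 of 40 members were higher with Hmgb1ΔHepΔMye and added WT HMGB1 than in WT livers, where 15.8% of all genes tested were called higher and 13% lower. Without scaling factors the calls over all genes were 2671 higher and 1149 lower, in place of 2230 and 1839, and 40 members were higher. The median log2 difference was 3.17, against 0.02 over all genes, and the groups did not overlap in 39 members, all but Spc25, where 17.7% of all genes lay above without overlap. The genotype and the added HMGB1, with any vector that carried it, differ together, so that their parts cannot be told apart. Ccnb2, a B-type cyclin gene, stood at 17.2, 32.3, 22.1 and 21.2 CPM against 0.678, 0.692, 2.17 and 0.635 CPM (log2 fold change 4.46, SE 0.46, adjusted p = 3.15e-06), and Plk1 at 13.7, 20.3, 23.7 and 22.1 against 0.895, 0.692, 1.86 and 0.821 CPM (log2 fold change 4.22, SE 0.32, adjusted p = 1.96e-07). Cenpf stood at 15.3, 19.5, 23.4 and 24.0 against 0.759, 0.415, 2.03 and 0.597 CPM (log2 fold change 4.42, SE 0.41, adjusted p = 1.47e-06). The lowest of the Hmgb1ΔHepΔMye libraries exceeded the highest WT library in each. Log2 differences of the other named members were Cdc20 3.26, Bub1 2.93, Cenpe 3.52, Birc5 2.80, Incenp 2.56, Hmmr 4.30, Kif2c 3.76, Kif20a 4.26, Prc1 3.38, Mki67 3.51 and Top2a 2.39. The smallest difference was that of Spc25, at 1.12 (SE 0.31).

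**Figure D4:**
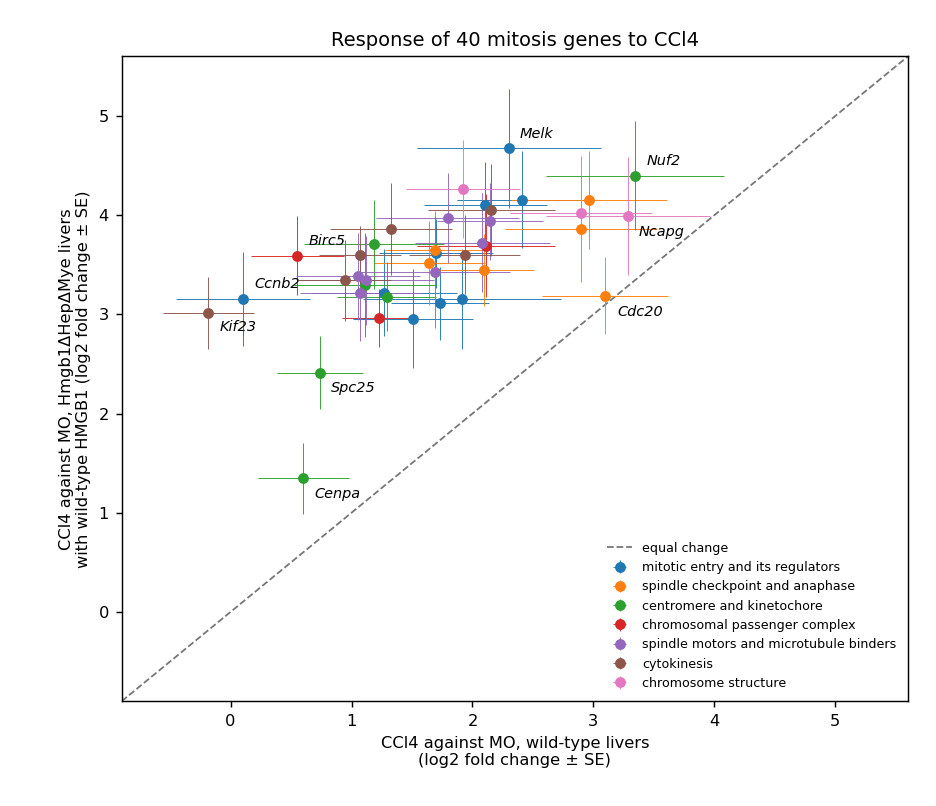
log2 fold change of each member from MO to CCl4 in WT livers (horizontal axis) and in Hmgb1ΔHepΔMye livers with added WT HMGB1 (vertical axis), with SE bars and colours by role group; the dashed line marks equal change. All 40 points lie above the line, Cdc20 next to it (3.09 and 3.19) and Kif23 farthest from it (-0.18 and 3.02).

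The change from MO to CCl4 itself differed between these genotypes in 16 of 40 members, all with the larger rise in Hmgb1ΔHepΔMye livers, where 6.85% of all genes tested were called higher and 6.64% lower. All 40 differences were positive, with a median of 1.88 on the log2 scale, against 0.00 over all genes. Kif23, which was not called in WT livers, stood at 1.27, 1.38 and 1.20 CPM with MO and 7.47, 10.98, 12.3 and 10.8 CPM with CCl4 in Hmgb1ΔHepΔMye livers, so that its changes of -0.18 and 3.02 differed by 3.20 (SE 0.52), adjusted p = 6.20e-04 in edgeR's test. Ccnb2 stood at 3.39, 2.47 and 2.02 CPM with MO in Hmgb1ΔHepΔMye livers, and its changes of 0.11 and 3.15 differed by 3.05 (SE 0.72), adjusted p = 0.00947. Birc5 rose from 2.20, 1.63 and 1.90 to 16.2, 25.7, 26.7 and 23.6 CPM in Hmgb1ΔHepΔMye livers and stood at 2.06, 2.08 and 2.63 and 3.39, 1.36, 5.54 and 2.95 CPM in WT livers, a difference of 3.04 (SE 0.54). These 3 genes began from similar MO levels in both genotypes or, for Ccnb2, from a higher level in Hmgb1ΔHepΔMye livers.

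The other members called for this difference were Plk1 (1.91, SE 0.62), Bub1b (1.96, SE 0.56), Cenpf (2.52, SE 0.76), Cenpe (1.89, SE 0.54), Spc25 (1.67, SE 0.50), Incenp (1.74, SE 0.41), Nusap1 (2.33, SE 0.68), Kif11 (2.15, SE 0.68), Tpx2 (1.80, SE 0.58), Anln (2.53, SE 0.68), Kif20a (2.53, SE 0.44), Ect2 (2.40, SE 0.54) and Mki67 (2.34, SE 0.63). Cdc20 lay at the other end. It stood at 4.24, 3.93 and 2.43 CPM with MO and 33.4, 38.2, 31.2 and 25.0 CPM with CCl4 in Hmgb1ΔHepΔMye livers, so that both its MO and its CCl4 levels were higher than in WT livers and its changes differed by 0.09 (SE 0.77). By role, the called genes were 4 of 6 in cytokinesis, 3 of 6 at the centromere and kinetochore, 3 of 7 motors and microtubule binders, 2 of 3 in the passenger complex, 2 of 9 in mitotic entry, 1 of 6 in the spindle checkpoint and anaphase and 1 of 3 in chromosome structure. The count depended on single libraries: it was 7 without WT MO 1 or without library 2 of the MO group with added WT HMGB1, 9 without WT MO 2 or WT CCl4 2, and 10 without WT CCl4 4 or library 1 of that MO group. Without scaling factors it was 10, where 529 of all genes were called higher and 1359 lower in place of 968 and 938. DESeq2 called 27 members, and 1173 of all genes higher and 1175 lower.

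**Figure D5:**
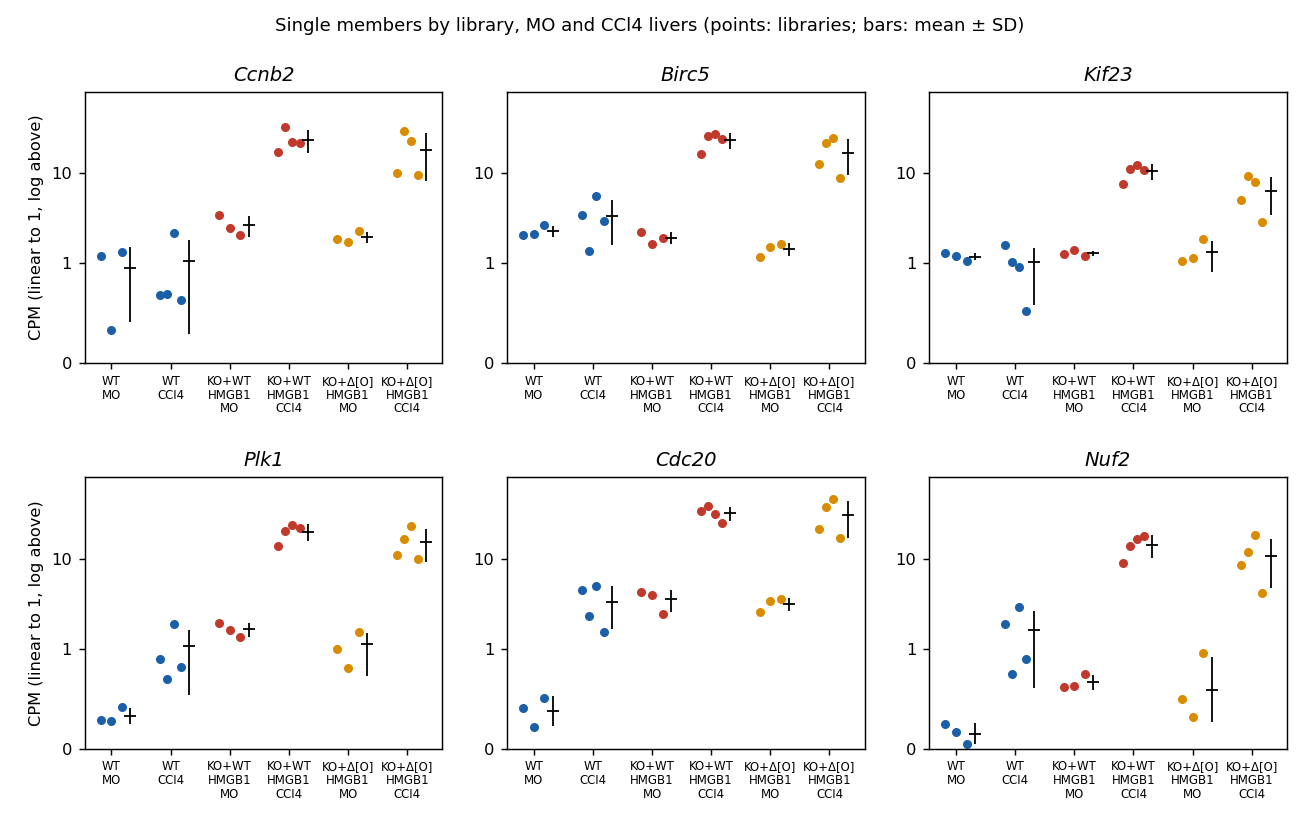
Level of 6 members in each library of the MO and CCl4 livers (points; vertical axis in CPM, linear up to 1 and logarithmic above), with mean and SD of each group beside them; KO stands for Hmgb1ΔHepΔMye. Ccnb2, Birc5 and Kif23 overlap between MO and CCl4 in WT livers and are separate in the 2 Hmgb1ΔHepΔMye groups, while Cdc20 and Nuf2 are separate in WT livers too.

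Other cell cycle genes were compared between the genotypes as well, where 15.8% of all genes tested were called higher and 13% lower under CCl4. Under CCl4, 45 of 49 further mitotic genes were higher and 2 lower with Hmgb1ΔHepΔMye and added WT HMGB1 than in WT livers, with Depdc1a at log2 4.51 and the motor gene Kif14 at 4.46. Of 20 replication genes 5 were higher and 0 lower, led by Rrm2 (1.90), which supplies deoxynucleotides, and Gins2 (1.30), while of 12 G1 cyclins, kinases and activator E2Fs 0 were called either way. Of 13 genes of the anaphase-promoting complex 2 were higher (Cdc27 0.35 and Fzr1 0.31) and of 12 MuvB, B-Myb and pocket protein genes 1 was higher (Rb1 0.53) and 1 lower (E2f5 -0.43). Of 14 inhibitors and stop signals 2 were higher and 3 lower, led by the CDK inhibitor genes Cdkn2d (1.56) and Cdkn1a (-1.55). The change from MO to CCl4 had raised 15 of 20 replication genes in WT livers and 19 of 20 in Hmgb1ΔHepΔMye livers with added WT HMGB1, and 8 and 9 of 12 G1 genes. Of all genes tested, 22.8% and 23.3% were called higher in these 2 comparisons.

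Cell type markers differed between these groups too. With CCl4, the stellate sums given above were highest with added WT HMGB1, where all 4 libraries lay above both other groups. The summed macrophage genes (6 of 6 found) stood at 462 to 505 CPM in WT livers, 237 to 379.7 CPM with added WT HMGB1 and 230.0 to 343 CPM with added Δ[O] HMGB1 under MO, and at 267 to 471, 438 to 512 and 208 to 443 CPM under CCl4. The leukocyte gene Ptprc stood at 12.8 to 16.5, 13.9 to 25.1 and 15.1 to 24.6 CPM under MO and at 12.7 to 25.3, 38.7 to 50.9 and 16.3 to 32.5 CPM under CCl4. Other markers separated WT livers from both Hmgb1ΔHepΔMye groups under CCl4. In the same order of groups, summed endothelial genes stood at 92.7 to 114, 158 to 201 and 143 to 189.7 CPM. T and NK cell genes stood at 2.29 to 3.12, 5.12 to 6.66 and 3.78 to 6.07 CPM. Cholangiocyte genes went the other way, at 23.3 to 41.8, 12.99 to 19.8 and 12.5 to 21.6 CPM. Hepatocyte, neutrophil, B and plasma cell and erythroid precursor genes overlapped between WT livers and both groups. The part of these cell types in the levels of the members was not tested. Within groups, Kif15, a spindle motor gene, varied most between libraries and Incenp least, with a mean SD of log2 CPM of 0.76 and 0.29 over the 6 groups. In the cells these were Cenpa at 0.19 and Aurkb at 0.03.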

How the data were processed

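RNA of HSC-T6 cells and of whole mouse livers was sequenced from TruSeq Stranded mRNA libraries, per the labels' protocols. The authors deposited whole-number read counts per gene in 3 tables of 12, 18 and 21 libraries, and the unit was read from the values. Mouse build mm10 is listed for every sample, also for the rat cells, per the submitters' processing notes. The sources used here name no aligner, counter or strand setting, so overlapping genes and near-identical copies are uncertain. Columns were matched to samples by group and number, and 0 were left without a sample. Rows that name no gene stayed out; reads assigned to no gene equalled 32.0% to 35.2% of gene counts for the cells and 5.50% to 8.51% for the MO and CCl4 livers.

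Each table was fitted by itself, with all its groups in 1 model, in edgeR 4.0.16 (R 4.3.3) by the robust quasi-likelihood test with TMM factors. Low genes were removed by filterByExpr (count 10, total 15), and p-values were adjusted over all genes tested. Counts of members by unadjusted p are given without the share of all genes, which was not counted. A standard error is the log2 fold change divided by the root of F. log2 CPM used a prior count of 2. The test was tried on simulated data. Alternatives were other scaling, other filters, DESeq2 1.42.0, a fit of the groups compared alone, a replicate block and each library left out.

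The members and gene lists were chosen with earlier results of these data known. Named members are the 2 with the largest called change in each role, the 4 with the highest mean level where none was called, and those of largest and smallest spread; any other member named was chosen after its values were seen. No label ties numbers to animals or days. The deviations of same-numbered libraries from their group means were correlated over all genes tested. Libraries with unlike numbers were not correlated, so these values have no background. In the first liver table the lowest value, between [O] fibrosis and [SO3] resolution libraries, was -0.45. Numbers were taken to pair the libraries where every pair exceeded 0.1. This held among the fibrosis groups (0.19 to 0.71) and among the CCl4 groups (0.11 to 0.31), and in no other comparison of 2 groups made. A block fit of those groups alone was added after the data were seen. The MO groups with added WT and added Δ[O] HMGB1 also paired (0.29 to 0.45). They met only in the difference of responses, and no block fit of them alone was made. Promoters were read in Python 3.11.15 from RefSeq (GRCm38.p6), and figures were drawn with matplotlib 3.10.9.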

Additional observations from a re-analysis of the deposited data

Results flagged for a closer look

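Among the groups of 4 libraries, 3 of 123 values of single members or of their sum had a library far from the others, where about 1 in 20 does so by chance. In WT livers with CCl4, library 3 held Ccnb2 at 2.17 CPM against 0.635 to 0.692 CPM in the others, and Foxm1 at 3.68 CPM against 1.30 to 1.46 CPM. In Hmgb1ΔHepΔMye livers with added WT HMGB1 and CCl4, library 1 held Kif20a at 26.1 CPM against 37.8 to 40.04 CPM.

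The change from MO to CCl4 was larger in Hmgb1ΔHepΔMye livers with added WT HMGB1 than in WT livers for 16 members by edgeR's interaction test. On the log2 scale the differences were Kif23 3.20, Ccnb2 3.05, Birc5 3.04, Anln 2.53, Kif20a 2.53, Cenpf 2.52, Ect2 2.40, Mki67 2.34, Nusap1 2.33, Kif11 2.15, Bub1b 1.96, Plk1 1.91, Cenpe 1.89, Tpx2 1.80, Incenp 1.74 and Spc25 1.67. The high Ccnb2 library of WT livers with CCl4 makes the difference in that gene smaller, not larger.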

How the results depend on the processing

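The counts of called members stayed within 1.5 times of the reported ones under every alternative for [SO3] against BSA and against [O], CCl4 against MO in the 3 genotype groups, and the genotypes under CCl4, and the comparisons with 0 calls kept 0. With the replicate block over all groups of a table the counts were 0 for [H] against BSA and 15 for resolution against fibrosis BSA, where the numbers do not pair the libraries by their correlations. Where they do, among the fibrosis groups and among the CCl4 groups, neither block fit changed a call of a member. Resolution against fibrosis BSA gave 6 with no filter, where 197 of all genes were called higher and 579 lower. It gave 0 with only the groups compared, where fewer members were tested. The difference in CCl4 response between genotypes gave 10 without scaling factors and 27 with DESeq2, beside the calls over all genes given above. The cause was not tested. With each library left out, called members ran from 0 to 1 for [H] against BSA, 10 to 20 for [O] against BSA, 0 to 38 for resolution against fibrosis BSA and 7 to 24 for the genotype difference. No other scaling turned the direction of a member count.

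Of 150 single-gene results under 2179 alternatives, 1997 kept direction and call, 166 lost the call and 16 changed sign, none of them called. Leaving out 1 library moved the log2 difference for [O] against BSA in fibrosis over -2.22 to 1.15 in Mki67, -1.60 to 0.78 in Top2a, -0.87 to 0.87 in Incenp and -1.32 to 0.85 in Cdk1, and for [H] over -2.57 to 0.25 in Cdk1, with the positive ends without fibrosis BSA 3. For [SO3] in resolution the ranges were -0.21 to 0.49 in Mki67, which was -0.11 with the replicate block, and -0.061 to 0.40 in Cdk1. For Δ[O] against WT HMGB1 under CCl4 Cdk1 ranged over -0.44 to 0.26, and in the difference of responses Mki67 over -0.63 to 0.13 and Ccna2 over -0.48 to 0.12. In WT livers with MO, 19 of 40 members had a library with under 10 counts, which limits their fold changes. Such members were not counted in the MO groups of Hmgb1ΔHepΔMye livers, where some fold changes rest on few counts too. Melk had 3 counts in MO library 2 with added WT HMGB1, and Bub1 had 3 in MO library 2 with added Δ[O] HMGB1.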

Other observations

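The ratio of cyclin B to Cdk1 transcripts within a library was looked at after the values were seen and is given as a description, with no test. It compares libraries, since CPM is not scaled by gene length. With CCl4 the ratio of Ccnb2 to Cdk1 ran from 0.0562 to 0.156 in WT livers, from 0.621 to 0.889 in Hmgb1ΔHepΔMye livers with added WT HMGB1 and from 0.358 to 1.07 with added Δ[O] HMGB1. With MO it ran from 0.109 to 0.392, 0.518 to 0.823 and 0.578 to 0.785. The lowest of these, in WT library 2, rests on Ccnb2 at 0.328 CPM, where 3 counts equal 0.164 CPM. The ratio of Ccnb1 to Cdk1 ran from 0.0539 to 0.0939 in WT livers with CCl4 and from 0.291 to 0.460 and 0.301 to 0.515 in the Hmgb1ΔHepΔMye groups. Hence the WT livers lay below both Hmgb1ΔHepΔMye groups in both ratios, with MO and with CCl4.

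In the fibrosis livers with BSA the ratio of Ccnb2 to Cdk1 was 0.0900 in library 1, 0.5 in library 2 and 1.08 in library 3. The ratio of library 2 rests on few counts. Ccnb2 stood at 0.805 and Cdk1 at 1.61 CPM there, where 3 counts equal 0.302 CPM. Library 2 had the lowest member levels of that group. With [H] the ratio was 0.0485, 0.129 and 0.551, while library 1 had the highest summed level. The ratio thus did not follow the order of the member levels in either group. In the cells with BSA it lay between 0.505 and 0.538. Across the 6 groups of that first liver table, the highest ratio of Ccnb1 to Cdk1 was 0.881, in antibody 1, the library with the highest member levels of the resolution livers.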
